A study of Mus musculus with 4 samples.

Results

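Prostaglandin synthesis and its receptors were examined as 10 genes, taken by symbol from the amplicon names of a mouse expression panel: Ptgs1, Ptgs2, Ptges, Ptgis, Ptgds, Hpgd, Ptger1, Ptger2, Ptger3 and Ptger4. Of the 10, 9 had an amplicon among the 23930 in the table, and Ptger1 was not analysed here. Of the 9, 7 held at least 1 RPM (reads of an amplicon, scaled to the same library total in every library) in at least 2 libraries and were tested, among 11638 genes in all. Ptger3 and Ptgds stood below that level.

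The cells were primary progenitor cells of subcutaneous tissue from C57BL/6 mice whose Gnas alleles are floxed, meaning flanked by sites that Cre recombinase joins. The mutant libraries (2) came from cells infected with Ad-Cre, an adenovirus that carries Cre, and labelled Gnas-/-. The control libraries (2) came from the same kind of cells infected with Ad-GFP, an adenovirus for green fluorescent protein, and labelled wild type. All 4 were kept in osteogenic medium for 7 days, so every group carried floxed alleles, an adenovirus and the bone-forming medium. The groups differ in the viral cargo as well as in Gnas, and its effect and that of losing Gnas cannot be told apart. Whether the pair of libraries in a group stems from different animals or dishes is not in the labels, so a p-value here reflects just the spread among these 4 libraries.

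Prostaglandins are short-lived lipid signals. Phospholipases free arachidonic acid from membranes, the cyclooxygenases encoded by Ptgs1 and Ptgs2 turn it into prostaglandin H2, and terminal synthases make the individual prostaglandins from that. Prostaglandin E2 acts through 4 receptors that differ in their G protein: those of Ptger2 and Ptger4 couple to the stimulatory protein encoded by Gnas and raise cyclic AMP, that of Ptger3 mainly lowers it, and that of Ptger1 raises calcium. In bone-forming cells, prostaglandin E2 made through Ptgs2 is a known local stimulus of matrix formation, and Ptgs2 itself is a known target of cyclic AMP in several cell types.

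In the mutant libraries Ptgs2, the inducible cyclooxygenase gene, fell 5.58-fold. The gene of its constitutive partner, Ptgs1, and Ptges, which encodes an inducible prostaglandin E synthase that works with Ptgs2, also stood lower in both mutants than in both controls, but did not pass the test. Ptgis, the prostacyclin synthase gene, was at like levels in all 4 libraries. Ptger4 stood higher in both mutants than in both controls and did not pass. Of the 7 tested members, 0 were called higher and 1 was called lower (limma, Benjamini-Hochberg adjusted p below 0.05). The background in this comparison was 1.73% of tested genes called higher and 0.576% called lower.

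The stretches around the annotated starts of Ptgs2, Ptgs1 and Ptges are shown because these are the 3 synthesis genes whose mutant values lay below both controls. Each runs from 250 bases before to 50 after the start, 5′ to 3′ on the strand of the gene, from RefSeq on GRCm38.p6. They lie at chr1:150099781-150100080 (plus strand), chr2:36230176-36230475 (plus strand) and chr2:30903248-30903547 (minus strand). The Ptges window lies inside the longer span that a second annotation (GENCODE M21) gives the gene, and not at the start of that span. Capitals in Ptgs2 mark CGTCA, which is TGACG on the other strand and the core of the cyclic AMP response element, with the E-box CACGTG that overlaps it, and capitals in all 3 mark an NF-kB-like motif, GGG and CC with any 5 bases between them.
Ptgs2: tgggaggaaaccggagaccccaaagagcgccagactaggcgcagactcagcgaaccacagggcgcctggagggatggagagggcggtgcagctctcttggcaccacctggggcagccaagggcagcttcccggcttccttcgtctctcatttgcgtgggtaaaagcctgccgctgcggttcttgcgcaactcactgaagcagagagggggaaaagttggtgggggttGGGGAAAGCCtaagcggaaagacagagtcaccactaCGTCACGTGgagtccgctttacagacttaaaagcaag
Ptgs1: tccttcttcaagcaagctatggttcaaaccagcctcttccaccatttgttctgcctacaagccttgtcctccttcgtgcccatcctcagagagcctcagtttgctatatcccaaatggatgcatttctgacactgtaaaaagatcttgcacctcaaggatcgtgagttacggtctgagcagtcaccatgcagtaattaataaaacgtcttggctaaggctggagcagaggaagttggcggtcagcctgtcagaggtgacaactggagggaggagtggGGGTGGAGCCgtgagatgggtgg
Ptges: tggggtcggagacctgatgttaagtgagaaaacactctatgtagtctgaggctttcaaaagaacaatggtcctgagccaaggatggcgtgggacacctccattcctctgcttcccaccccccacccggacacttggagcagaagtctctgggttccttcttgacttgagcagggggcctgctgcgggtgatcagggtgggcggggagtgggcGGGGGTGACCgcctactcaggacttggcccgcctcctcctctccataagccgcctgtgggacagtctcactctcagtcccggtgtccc

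A RefSeq window was found for 8 of the 10 members, and motifs were searched on both strands. The core TGACG was in the window of 1 of the 8, Ptgs2, with its complement at bases 14 to 18 after the start, and in 20.8% of all 32851 windows of that length. The full element TGACGTCA was in 0 of the 8 members' windows and in 1.79% of all windows. The E-box CACGTG, added after the sequence was seen, was at bases 17 to 22 of Ptgs2 and in 7.15% of all windows. The NF-kB-like motif was in the windows of 6 members and in 50.8% of all windows. The AP-1 motif TGANTCA was in that of Ptgds alone among members (7.81% of all windows), and TATAAA in that of Hpgd alone (13.6%). A match is a run of letters and does not show that a factor binds there.

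The 4 libraries held 13483518 to 18455811 reads. Pearson's r of log2(RPM + 1) across the tested genes, which are not independent replicates, was 0.981 between the mutants and 0.916 between the controls. The controls differed by over 4-fold in 507 genes and the mutants in 11. The female-specific RNA Xist stood at 395 and 419 RPM in mutants 1 and 2, against 165 and 0 RPM in controls 1 and 2, and the Y-linked Ddx3y at 26.9 and 12.5 RPM in mutants 1 and 2, against 61.4 and 124 RPM in controls 1 and 2. Both were picked with their values known. The libraries thus differed in sex-linked RNA, between the controls as well as between the groups. The difference between the groups cannot be told apart from genotype. No row of the table named Gnas, so the targeted gene was not analysed here and could not check the labels. Of the 12 listed markers of stromal progenitors, the labelled cell type, 11 had an amplicon. Their sum was 31194 and 34035 RPM in mutants 1 and 2, against 13837 and 16936 RPM in controls 1 and 2. Col1a1, Col1a2 and Thy1 were the most abundant of them in every library. Dpp4 was scarce, at 0 and 0.337 RPM in mutants 1 and 2, against 1.19 and 0 RPM in controls 1 and 2. Of the 10 tested, 7 were higher and 1 lower in both mutants than in both controls, against 30.6% and 21.1% of all tested genes. Limma called Dpt alone higher (adjusted p = 0.0389), at 666 and 430 RPM in mutants 1 and 2, against 19.0 and 58.1 RPM in controls.

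Ptgs2 stood at 23.8 RPM in mutant 1 and 23.0 RPM in mutant 2, against 92.4 RPM in control 1 and 169 RPM in control 2. The mutants nearly coincided, the controls differed from each other by 1.83-fold, and the lower control was 3.88-fold above the higher mutant. Means were 23.4 ± 0.561 RPM in mutants and 131 ± 54.2 RPM in controls (SD, n = 2 libraries each). The log2 fold change on the log2(RPM + 1) scale was -2.37 (SE 0.34, limma adjusted p = 0.0401), and 2.70% of tested genes had a larger change in either direction. The gene lies on chromosome 1 at 150100031 to 150108227 (GRCm38, GENCODE M21; the position of the amplicon is not given in the sources used here). The log2 fold change was -2.80 without control 1, -1.94 without control 2, -2.39 without mutant 1 and -2.34 without mutant 2. With 1 library left in a group, limma takes the spread from the other group alone. Such fits are therefore given as log2 fold changes only. The size of the fall hardly moved with the tool, but the call did: edgeR on whole reads gave -2.57 with an adjusted p of 0.0624. DESeq2 gave -2.59 with an adjusted p of 1.83e-07.

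Ptgs1 stood at 24.7 and 24.9 RPM in mutants 1 and 2, against 42.4 RPM in control 1 and 105 RPM in control 2. The groups did not overlap, but the controls differed from each other by 2.47-fold, more than the 1.70-fold from the lower control to the higher mutant. The log2 fold change was -1.39 (SE 0.45, limma adjusted p = 0.211). Control 2 set much of that size: the log2 fold change was -0.75 without control 2 and -2.04 without control 1. Within a library, the ratio of Ptgs2 to Ptgs1 was 0.965 in mutant 1 and 0.924 in mutant 2, against 2.18 in control 1 and 1.61 in control 2. This ratio compares 2 amplicons and not 2 transcript levels, and it was lower in both mutants than in both controls. An exact permutation test of 2 libraries against 2 cannot go below a two-sided p of 0.333.

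**Figure D1:**
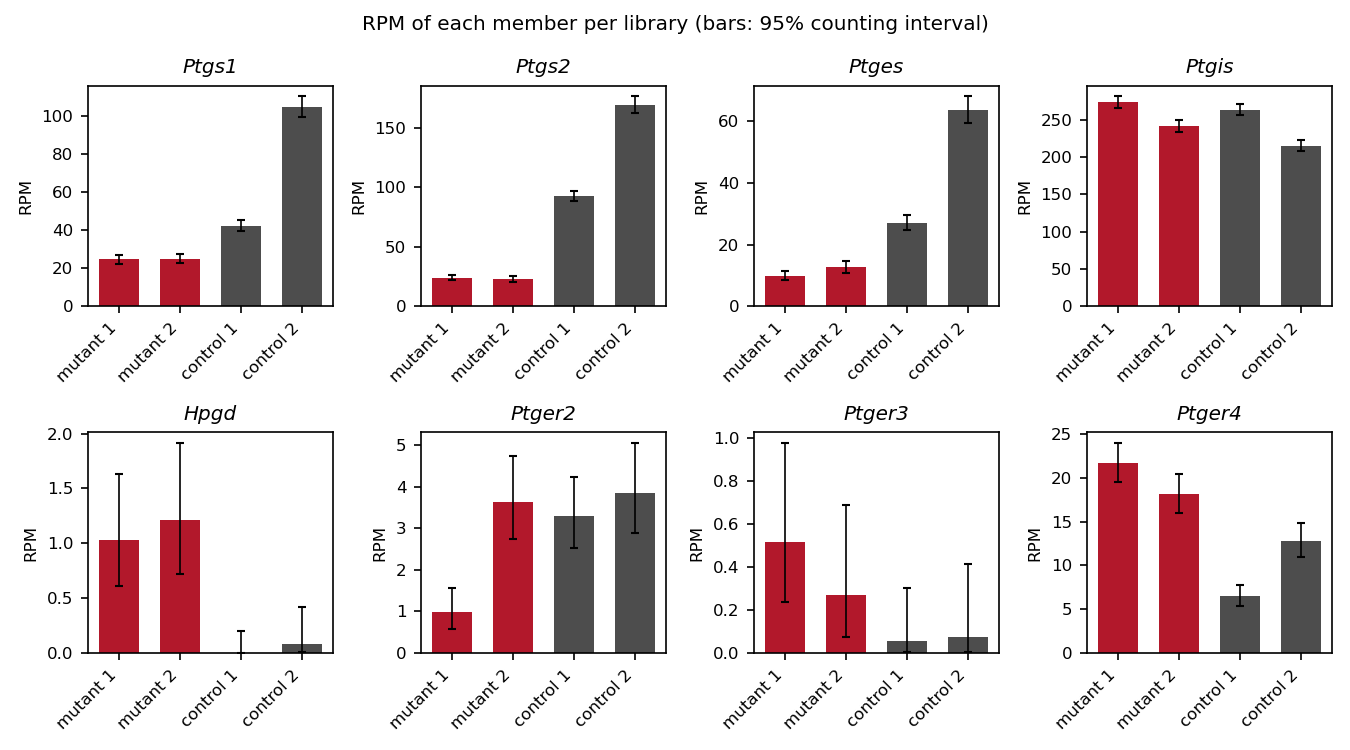
RPM of 8 members in each library (mutants red, controls grey), with bars for the 95% exact Poisson interval of the reads, which covers counting error only. Ptgs1, Ptgs2 and Ptges stand lower in both mutants than in both controls, Hpgd, Ptger3 and Ptger4 higher, and Ptgis and Ptger2 overlap; Ptgds, with no read, is not drawn.

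Ptges stood at 9.91 and 12.6 RPM in mutants 1 and 2, against 27.0 RPM in control 1 and 63.7 RPM in control 2. The groups did not overlap, with the lower control 2.14-fold above the higher mutant, and the controls 2.36-fold apart. The log2 fold change was -1.81 (SE 0.46, limma adjusted p = 0.14). It passed with DESeq2 (adjusted p = 0.00248) and not with edgeR (adjusted p = 0.142). The log2 fold change was -2.41 without control 1 and -1.20 without control 2. The gene lies on chromosome 2 at 30889471 to 30929863.

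Ptgis, whose product makes prostacyclin, stood at 273 and 242 RPM in mutants 1 and 2, against 264 and 215 RPM in controls 1 and 2. The groups overlapped. The log2 fold change was 0.11, with a 95% interval of -0.45 to 0.67 (limma adjusted p = 0.837), and it was -0.037 without control 2. Ptgds, the gene of the lipocalin-type prostaglandin D synthase, had no read in any library. A count of 0 allows up to 3 reads, which is 0.163 to 0.222 RPM in these libraries (such limits and intervals cover counting error only, as copies made in amplification are counted as reads).

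Hpgd, the gene of the dehydrogenase that inactivates prostaglandins, stood at 1.03 and 1.21 RPM in mutants 1 and 2, against 0 and 0.074 RPM in controls 1 and 2. These values are 18 reads in each mutant and 0 and 1 read in the controls, so the gene reached the filter only through the mutants. The ratio of pooled reads was 35.6, with an exact 95% counting interval of 5.99 to 1444. The log2 fold change was 1.03 (limma adjusted p = 0.224), and neither edgeR (adjusted p = 0.18) nor DESeq2 (0.131) called it.

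Among the receptors of prostaglandin E2, Ptger4 stood at 21.7 and 18.1 RPM in mutants 1 and 2, against 6.50 and 12.8 RPM in controls 1 and 2. The groups did not overlap, and the lower mutant was 1.41-fold above the higher control, less than the 1.97-fold between the controls. The log2 fold change was 1.03 (SE 0.39, limma adjusted p = 0.269), and it was 0.59 without control 1 and 1.47 without control 2. Ptger2, the other receptor that raises cyclic AMP, stood at 0.974 and 3.64 RPM in mutants 1 and 2, against 3.31 and 3.86 RPM in controls 1 and 2. Mutant 1 alone was low, and without it the log2 fold change was 0.020 in place of -0.60 (limma adjusted p = 0.593 with all libraries). Ptger3 stood at 0.515 and 0.269 RPM in mutants 1 and 2, against 0.054 and 0.074 RPM in controls 1 and 2, which is 9, 4, 1 and 1 reads in that order. It was not tested, and its ratio of pooled reads was 6.43 with an exact 95% counting interval of 1.45 to 58.7.

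**Figure D2:**
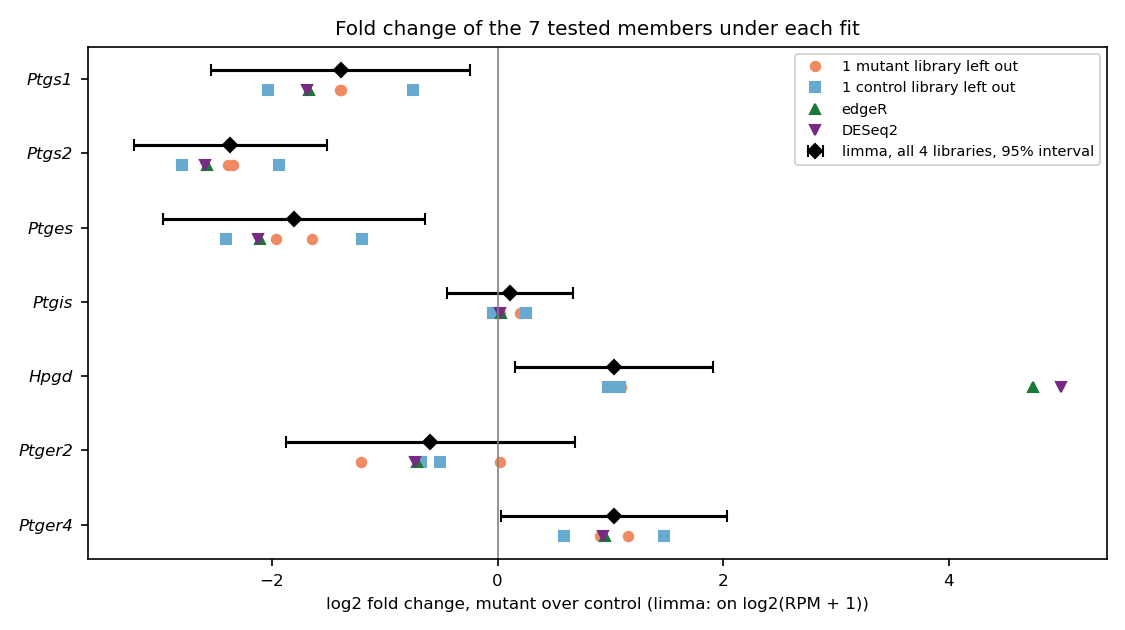
Log2 fold change of mutant over control for the 7 tested members. Black diamonds are limma on log2(RPM + 1) with the 95% interval, and coloured marks are fits with 1 library left out (also limma) and fits to whole reads with edgeR and DESeq2. Ptgs2 lies at -2.37 with every mark below 0, while the marks of Ptgis and Ptger2 fall on both sides of 0.

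As a group, 3 of the 7 tested members were lower and 2 higher in both mutants than in both controls, against 21.1% and 30.6% of all tested genes. Their median log2 fold change was -0.60, against 0.08 over all tested genes. That median is the value of Ptger2 alone, whose groups overlapped and whose size rested on mutant 1. Filtering removed 2 members with few reads and kept Hpgd through its mutant values, so these counts describe the 7 and not the 10. By limma without adjustment 5 of the 7 had a p below 0.05, as did 17.9% of all tested genes. DESeq2 called 3 lower (Ptgs1, Ptgs2 and Ptges) and 0 higher, where it called 4.24% of all tested genes lower and 5.14% higher. EdgeR called 0 lower and 0 higher, where it called 0.232% of all tested genes lower and 0.567% higher.

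Control 2, which held the most Ptgs2, Ptgs1 and Ptges, also held the most macrophage RNA, and macrophages are known to express the cyclooxygenases. The 14 macrophage markers summed to 26.4 and 14.8 RPM in mutants 1 and 2, against 47.0 RPM in control 1 and 975 RPM in control 2. Lyz2 made up most of this, with 20.8 and 10.4 RPM in mutants 1 and 2, against 33.9 and 822 RPM in controls 1 and 2. Of the 14, 8 and 5 had a read in mutants 1 and 2, against 11 and 12 in controls 1 and 2. In both mutants 10 of the 14 were lower than in both controls, 1 was higher and 3 were neither. Some of the 10 rest on few reads, such as C1qc, at 0 in both mutants against 0.108 and 0.074 RPM in controls 1 and 2. Of the 6 that were tested, 5 were lower and 0 higher without overlap, against 21.1% and 30.6% of all tested genes. Among single markers, Ptprc, Fcer1g and Mrc1 were at 0 in both mutants, Adgre1 was at 0 in both mutants and in control 1, and Cd163 was at 0 in all 4 libraries. Csf1r stood at 2.01 and 1.68 RPM in mutants 1 and 2, against 1.08 and 14.9 RPM in controls 1 and 2, so that control 1 was lowest. The 1 that was higher, C1qa, stood at 0.172 and 0.135 RPM in mutants 1 and 2, against 0 and 0 RPM in controls 1 and 2. Of the 14, 6 were tested and 0 passed (limma; 2 had an unadjusted p below 0.05, edgeR called 0 and DESeq2 called 4 lower). Of all tested genes, 17.9% had an unadjusted p below 0.05 and DESeq2 called 4.24% lower. In bulk samples, fewer cells of a type and less RNA per cell cannot be told apart. The part of macrophage RNA in the values of the prostaglandin genes was not tested.

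Markers of other cell types were summed in the same way. The 8 mast cell markers summed to 0.802 and 1.48 RPM in mutants 1 and 2, against 0.920 and 1.41 RPM in controls 1 and 2. Keratinocyte and adipocyte lists stayed at or below 1.28 RPM in every library. Endothelial markers summed to 18.3 and 36.7 RPM in mutants 1 and 2, against 10.3 RPM in control 1 and 84.8 RPM in control 2, so that control 2 was again highest. That sum followed Pecam1, Cdh5 and Emcn, as Kdr was lowest in control 2 (0.890 RPM) and Tek was higher in both mutants than in both controls. Pericyte and smooth muscle markers had a higher sum in both mutants, at 254 and 382 RPM, against 128 and 121 RPM in controls 1 and 2. Where limma called 1.73% of all tested genes higher, it called 2 of the 4 tested markers higher. Those were Cspg4, at 111 and 157 RPM in mutants 1 and 2, against 15.1 and 22 RPM in controls 1 and 2 (limma adjusted p = 0.0252), and Notch3, at 80.2 and 104 RPM in mutants 1 and 2, against 17.8 and 10.9 RPM in controls 1 and 2 (limma adjusted p = 0.0325). The sum followed these, as Myh11 and Des overlapped between the groups, and Kcnj8 and Abcc9 were lower in both mutants. The part of these cell types in the values of the prostaglandin genes was not tested.

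**Figure D3:**
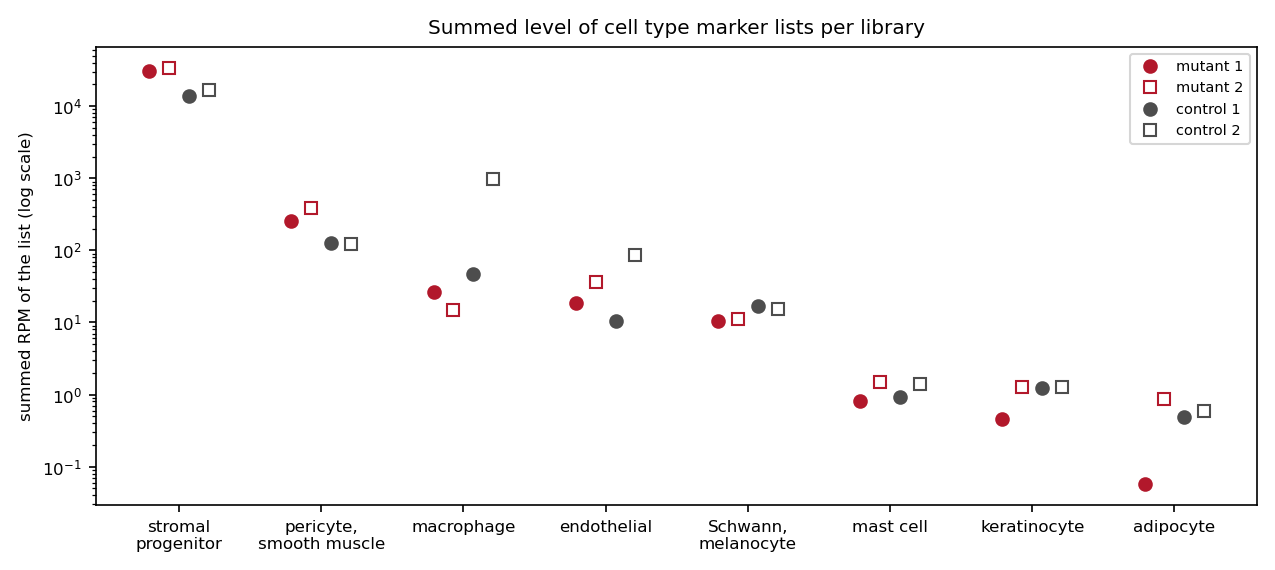
Summed RPM (log axis) of 8 lists of cell type markers in each library, mutants left of controls. Control 2 stands apart in the macrophage list at 975 RPM, and stromal progenitor markers sum to 13837 RPM or more in all 4 libraries.

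A wider list of 40 gene symbols covered other parts of the pathway: phospholipases, other synthases, transporters and breakdown enzymes, other prostanoid receptors, and the leukotriene branch. Pla2g16 and Plaat3 are an older and a newer symbol of the same gene, as are Fam213b and Prxl2b, so the 40 symbols stand for fewer genes. These genes had their amplicons under the older symbols. An amplicon was found for 35, and 22 were tested, of which 1 was called higher, 0 lower and 21 not called by limma (8 of the 22 had an unadjusted p below 0.05, edgeR also called 1 higher and 0 lower, and DESeq2 1 higher and 5 lower). Their median log2 fold change was -0.39, against 0.08 over all tested genes. Of the 22, 10 were lower and 3 higher in both mutants than in both controls, against 21.1% and 30.6% of all tested genes. Over all tested genes 17.9% had an unadjusted p below 0.05, and limma called 1.73% higher and 0.576% lower. EdgeR called 0.567% of them higher and 0.232% lower, and DESeq2 5.14% higher and 4.24% lower.

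The gene called was Tbxa2r, which encodes the thromboxane receptor, a receptor that works mainly through calcium and not through the protein of Gnas. It rose to 41.1 and 64.3 RPM in mutants 1 and 2, against 2.44 and 2.37 RPM in controls 1 and 2. All mutant values lay far above the controls, a ratio of means of 21.9 and a log2 fold change of 3.94 (SE 0.34, limma adjusted p = 0.0196). Its log2 fold change was 4.26 without mutant 1 and 3.63 without mutant 2.

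Thromboxane synthase itself, Tbxas1, was near 0 in mutants (0 and 0.135 RPM, against 0.217 and 1.41 RPM in controls 1 and 2) and was not tested. Ptgir, the prostacyclin receptor that raises cyclic AMP, stood at 10.5 and 9.16 RPM in mutants 1 and 2, against 40.9 and 16.2 RPM in controls 1 and 2. It was lower in both mutants, with a log2 fold change of -1.31 (limma adjusted p = 0.254), which was -0.67 without control 1 and -1.95 without control 2. Ptgfr, the calcium-raising receptor of prostaglandin F2-alpha, stood at 6.30 and 9.90 RPM in mutants 1 and 2, against 1.57 and 4.30 RPM in controls 1 and 2. It was higher in both mutants with a log2 fold change of 1.27 (limma adjusted p = 0.269), which was 0.75 without control 1 and 1.79 without control 2. Its partner gene Ptgfrn, whose product restrains that receptor, had a log2 fold change of -0.28 (95% interval -0.88 to 0.32, limma adjusted p = 0.588). Tbxas1, Ptgir and Ptgfr were named after their values were seen.

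Among phospholipases, 5 of the 7 tested genes were lower in both mutants than in both controls, and 0 passed (3 of the 7 had an unadjusted p below 0.05, edgeR called 0 and DESeq2 3 lower). The 7 were listed by family, and not all of them supply the cyclooxygenases. Over all tested genes 21.1% were lower without overlap, 17.9% had an unadjusted p below 0.05, and DESeq2 called 4.24% lower. Pla2g4a, the cytosolic enzyme that frees arachidonic acid, stood at 77.8 and 57.5 RPM in mutants 1 and 2, against 168 and 92.3 RPM in controls 1 and 2. Its log2 fold change was -0.89 (limma adjusted p = 0.284), and it was -0.46 without control 1 and -1.32 without control 2. The lysosomal phospholipase gene Pla2g15 overlapped between the groups, with a log2 fold change of 0.04 (95% interval -0.78 to 0.86) whose sign changed with the scaling. Pla2g2e, a secreted phospholipase gene picked after seeing its values, stood at 0.859 and 1.89 RPM in mutants 1 and 2, against 131 RPM in control 1 and 5.41 RPM in control 2, so that control 1 held most of the gap (limma adjusted p = 0.271).

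Of 4 tested synthases outside the members 0 passed (limma; 0 had an unadjusted p below 0.05, and edgeR and DESeq2 called 0). Akr1b8, an aldo-keto reductase gene, had a log2 fold change of 0.15 and overlapping groups (limma adjusted p = 0.813). Cbr1, a carbonyl reductase gene, had one of -0.25 (limma adjusted p = 0.663). Hpgds, the blood-cell prostaglandin D synthase gene, was named after its values were seen. It had no read in either mutant or in control 1 and 3.71 RPM in control 2, where Lyz2 was highest.

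For transport and breakdown, 0 of 5 tested genes passed (2 had an unadjusted p below 0.05; edgeR called 0 and DESeq2 1 lower). Of all tested genes, 17.9% had an unadjusted p below 0.05 and DESeq2 called 4.24% lower. Abcc4, a pump that exports prostaglandins, came nearest and was named after its values were seen. It stood at 16.6 and 14.3 RPM in mutants 1 and 2, against 46.4 and 42.0 RPM in controls 1 and 2, a log2 fold change of -1.46 (limma adjusted p = 0.0606). The groups were well apart and both pairs of replicates were close. Slco2a1, the uptake carrier for prostaglandins, stood at 49.4 and 63.0 RPM in mutants 1 and 2, against 34.1 RPM in control 1 and 185 RPM in control 2, so that the mutants lay between the controls. Its log2 fold change was -1.71 without control 1 and 0.69 without control 2. Cbr3, a related carbonyl reductase gene, had a log2 fold change of -0.73 (limma adjusted p = 0.261).

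In the leukotriene branch, which shares arachidonic acid, neither of the 2 tested genes passed (limma; 0 had an unadjusted p below 0.05, and edgeR and DESeq2 called 0). Lta4h, the leukotriene A4 hydrolase gene, stood at 83.8 and 86.8 RPM in mutants 1 and 2, against 155 RPM in control 1 and 0.148 RPM in control 2. The amplicon was thus almost unread in control 2 alone, and the log2 fold change was 2.69 with all libraries, -0.86 without control 2 and 6.23 without control 1. Ltc4s, the leukotriene C4 synthase gene, had overlapping groups and a log2 fold change of -0.58 (limma adjusted p = 0.655), which was 0.044 without control 2.

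**Figure D4:**
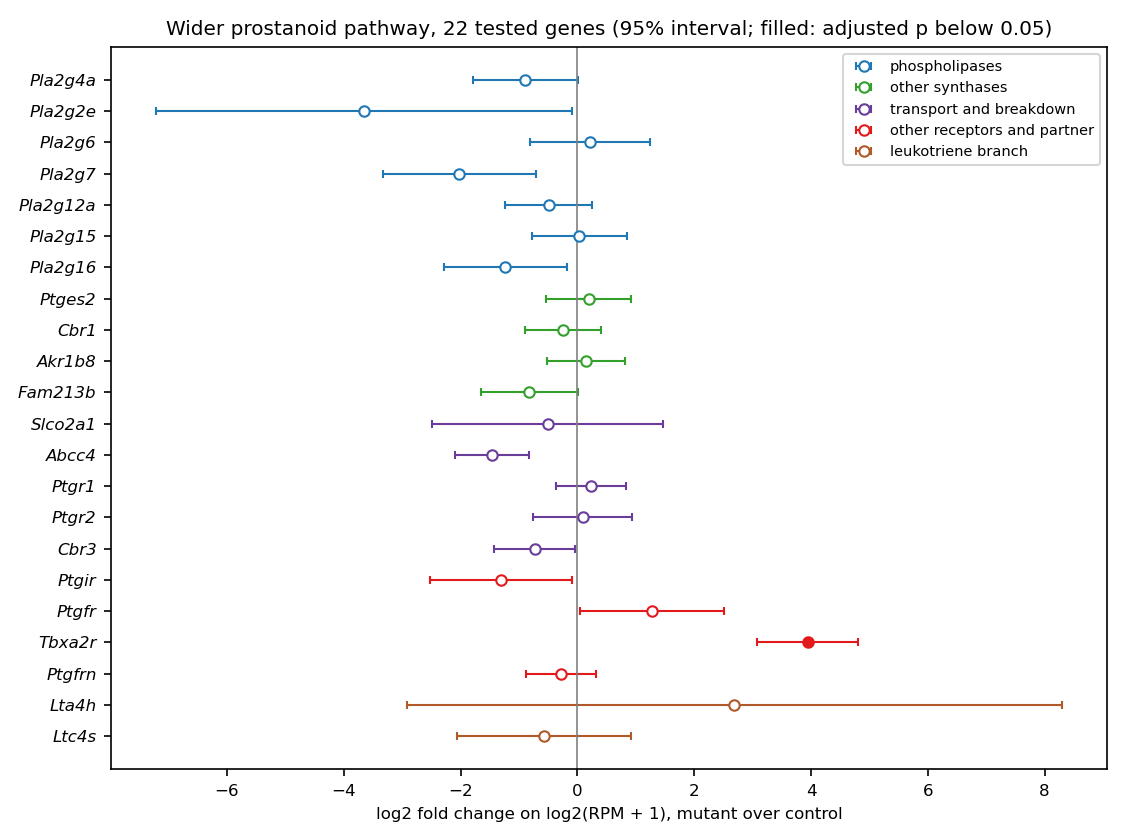
Log2 fold change of mutant over control on log2(RPM + 1), with 95% intervals from limma, for the 22 tested genes of the wider pathway, coloured by step. Only Tbxa2r is filled (adjusted p below 0.05), at 3.94; Lta4h has the widest interval.

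Beside Ptgs2 lie 2 noncoding genes, named after their values were seen. Ptgs2os starts 68 bases upstream of Ptgs2 on the other strand, and Ptgs2os2 lies 50816 bases beyond its end. Ptgs2os stood at 0.057 and 0.135 RPM in mutants 1 and 2, against 0.488 and 0.519 RPM in controls 1 and 2. Ptgs2os2 stood at 0.057 and 0.202 RPM in mutants 1 and 2, against 0.596 and 0.890 RPM in controls 1 and 2. Both were lower in both mutants, as Ptgs2 was, but they rest on 3 and 4 mutant reads against 16 and 23 control reads in all and were not tested. Whether counting used strand is not given in the sources used here.

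Among the tested genes whose profile over the 4 libraries lay nearest to that of Ptgs2 were F2rl3, Ero1l, Prkcb and Fmo2, by the root mean square difference of log2(RPM + 1) after each gene was centred on its mean. That difference ran from 0.0297 for F2rl3 to 0.151 for Fmo2. Ero1l, for example, stood at 63.4 and 55.5 RPM in mutants 1 and 2, against 217 and 452 RPM in controls 1 and 2. F2rl3 and Prkcb stood at or below 0.115 RPM in both mutants, so their likeness rests on few reads and on the pseudocount.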

How the data were processed

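Messenger RNA of 2 mutant and 2 control libraries was read with Ion AmpliSeq's mouse transcriptome panel, which amplifies 1 short target per gene, per the labels' protocols. A value therefore measures that target only. The authors deposited RPM values, scaled to the same total in every library. How reads were aligned, counted and filtered, and on which build, is not given in the sources used here. Symbols came from amplicon names, since 27 gene names had been turned into dates.

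Low values are multiples of what 1 read is worth, and 100% of non-zero values came out whole within 0.01 read. Genes that reached 1 RPM in 2 libraries or more were fitted with limma 3.58.1 in R 4.3.3 (trend, two-sided) on log2(RPM + 1), which understates changes of low genes. P-values were adjusted over all 11638 tested genes. Alternatives were other pseudocounts, filters and scalings, no trend, a fit with the replicate block, leaving out each library in turn, and edgeR 4.0.16 (66 genes higher, 27 lower) and DESeq2 1.42.0 on whole reads. The fits were tested on simulated data with 100 genes changed 4-fold and 100 changed 16-fold. Limma called 34% and 88% of these, edgeR 40% and 89%, and DESeq2 69% and 93%. False calls numbered 17, 13 and 55 in that order. The simulation gave both groups the same spread for each gene, whereas the real controls differed over 4-fold in 507 genes and the mutants in 11. These rates may therefore not hold for the real libraries. Named genes were the members, wider pathway genes that passed in limma or edgeR, the 2 most abundant of each step, and the 5 nearest to Ptgs2, of which 1 is not reported here. Members and lists were chosen with earlier results of these data known.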

Additional observations from a re-analysis of the deposited data

How the results depend on the processing

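Ptgs2 kept its direction under all 14 alternatives, with its log2 fold change between -2.80 and -1.94 when 1 library was left out. Its call was lost without a filter on low values (-2.37, adjusted p = 0.0704), with no variance trend (-2.37, adjusted p = 0.057) and with edgeR (-2.57, adjusted p = 0.0624). Members called lower numbered 1 in limma, 0 under each of those 3 settings and 3 with DESeq2. With 1 library left out they numbered 0 (without either mutant) to 3 (without control 1), and members called higher 0 to 1. Wider pathway genes called lower numbered 0 in limma and 5 with DESeq2, and 0 to 7 with 1 library left out (7 without control 2), while those called higher numbered 0 to 2. Over all tested genes, limma called 201 higher and 67 lower, 56 and 18 with no filter, 66 and 27 with edgeR, and 598 and 493 with DESeq2. Leaving out 1 library gave 0 (without either mutant) to 1609 higher and 0 to 802 lower. In fits with 1 library left in a group, limma takes the spread from the other group alone. The controls differed by over 4-fold in 507 genes and the mutants in 11. No conclusion about the genes is therefore drawn from counts of calls with 1 library left out. How much of their range this difference in spread accounts for was not tested.

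With 1 library left out, signs changed for Ptgis (-0.037 to 0.25), Ptger2 (-1.21 to 0.020), Pla2g15 (-0.35 to 0.43), Akr1b8 (-0.086 to 0.38), Slco2a1 (-1.71 to 0.69), Lta4h (-0.86 to 6.23) and Ltc4s (-1.20 to 0.044). Pla2g15 also changed sign with median-of-ratios scaling (-0.053), TMM scaling (-0.039), edgeR (-0.10) and DESeq2 (-0.12).

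The libraries share only replicate numbers: deviations of mutant 1 and control 1 from their group means had r = 0.164 across genes, from a single pairing. With the replicate block, genes called lower numbered 123, the adjusted p of Ptgs2 was 0.0215 (limma), and no member's or wider pathway gene's call changed. Reads limit Hpgd, Ptger3, Ptgds and both noncoding neighbours of Ptgs2.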
